A study of Mus musculus with 4 samples.

Results

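The factors that clear stalled ribosomes and those that end translation at stop codons were followed as a group of 10 mouse genes, *Pelo*, *Hbs1l*, *Gtpbp1*, *Gtpbp2*, *Ascc3*, *Nemf*, *Ltn1*, *Etf1*, *Gspt1* and *Abce1*. The members were chosen by function, with earlier results of these data known, and found by gene symbol. All 10 were among the 11598 genes of the deposited Ribo-seq table. Ribosome-protected fragments (RPFs), the stretches of mRNA that a bound ribosome shields from nuclease, had been sequenced from leptotene/zygotene spermatocytes of 12 dpp (days postpartum) mouse testes. Control libraries (labelled wild type, littermates in the paper) were compared with *Eef1g*-cKO libraries, with 2 libraries of each genotype. In *Eef1g*-cKO mice, *Stra8*-GFPCre, which is active in germ cells from the spermatogonial stage on, deletes part of a floxed *Eef1g* allele made on a C57BL/6J background. *Eef1g* encodes the gamma subunit of the elongation factor eEF1, a scaffold of the eEF1B complex that reloads eEF1A with GTP.

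A ribosome that stops within an mRNA is recognised in several ways. The pair PELO and HBS1L enters an empty A site and, together with the ATPase ABCE1, splits the ribosome into its subunits. The ASC-1 complex, with the helicase ASCC3, pulls apart ribosomes that have collided. The large subunit that still holds a nascent chain is bound by NEMF, which recruits the E3 ubiquitin ligase listerin (LTN1) so that the chain can be degraded. GTPBP1 and GTPBP2 are translational GTPases related to HBS1L and eEF1A, and loss of *Gtpbp2* causes ribosome stalling and neuron death in C57BL/6J mice, which carry a defective brain arginine tRNA. At a stop codon, eRF1 (*Etf1*) reads the codon and releases the chain with the GTPase eRF3a (*Gspt1*), after which ABCE1 recycles the ribosome.

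In limma on the FPKM values no member passed the adjusted test in *Eef1g*-cKO against control, while *Nemf* passed it in both count models run on the recovered reads, and the members did not all differ in the same direction. The levels of *Nemf*, *Ltn1*, *Ascc3*, *Gspt1* and *Etf1* were higher in both *Eef1g*-cKO libraries than in both control libraries, with *Nemf* the furthest apart at 60.7 ± 2.66 against 28.7 ± 5.50 FPKM (mean ± SD, n = 2 libraries). *Pelo* and *Hbs1l* were lower in both *Eef1g*-cKO libraries, *Pelo* at 19.8 ± 8.16 against 43.9 ± 17.8 FPKM. *Gtpbp1*, *Gtpbp2* and *Abce1* overlapped between the genotypes. FPKM here is RPF reads per kilobase of the deposited gene length per 1000000 reads counted on genes.

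The depth of the libraries bears on each of these values. The 2 control libraries held 2479504 and 1384282 reads counted on genes and the 2 *Eef1g*-cKO libraries 223906 and 407979, a mean depth 6.11 times lower in *Eef1g*-cKO. The 10 members had 38 to 642 and 16 to 483 reads each in control against 3 to 109 and 5 to 170 in *Eef1g*-cKO. Counting intervals below are exact 95% Clopper-Pearson intervals, which cover counting error only. The targeted gene had 107 and 58 reads in control against 0 and 4 in *Eef1g*-cKO, or 27.6 and 26.8 against 0 and 6.26 FPKM. Summed over 11 leptotene and zygotene markers, the sorted stage stood at 1909 and 1546 FPKM in control against 3941 and 3447 in *Eef1g*-cKO. *Sycp3* (811 and 716 against 2217 and 1778 FPKM) and *Hormad1* (140 and 75.3 against 503 and 511 FPKM) made up most of the gain. Both *Eef1g*-cKO libraries were above both control libraries for 8 of the 11, against 24.6% of all genes tested in limma. *Stra8*, a gene of meiotic entry, was lower (260 and 252 against 126 and 96.0 FPKM, limma adjusted p = 0.0379). Over 10 spermatogonial markers the sums were 1493 and 1762 against 247 and 230 FPKM. The 5 pachytene and spermatid markers summed to 419 and 364 against 1483 and 1393 FPKM, nearly all of it *Hist1h1t* (388 and 301 against 1458 and 1354 FPKM). The median limma difference of these 5 was −1.46. *Ldhc* was also higher in both *Eef1g*-cKO libraries, while *Piwil1* was lower (8.18 and 2.93 against 1.13 and 1.24 FPKM). *Prm2* (0 and 15.3 against 0 and 0 FPKM) and *Tnp1* (3.79 and 37.3 against 0 and 11.5 FPKM) were lower on average and overlapped. The paper detected no H1T, the protein of *Hist1h1t*, in spermatocytes of adult *Eef1g*-cKO testis sections. Sertoli cell markers (6 genes) summed to 66.8 and 22.2 against 17.95 and 9.09 FPKM and Leydig and peritubular markers (5 genes) to 37.2 and 25.2 against 7.44 and 18.9, and 0 of 8 macrophage and blood markers were in the table. By SYCP3 and γH2AX staining, the paper found comparable shares of leptotene/zygotene spermatocytes in the sorted cells of both genotypes. The part of these marker differences in the members' values was not tested. The libraries are bulk samples, in which fewer cells of a type and less RNA per cell cannot be told apart, and mRNA levels were not used here, so an RPF level counts both the mRNA present and its loading with ribosomes.

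The members' own coding sequences end in all of the stop codons that eRF1 reads. The ends of 9 of them are shown because termination at these codons is the step that *Etf1* and *Gspt1* carry out. Each line gives the last codons before the stop, the stop codon in capitals and the bases after it, 5′ to 3′ on the coding strand, from GENCODE M21 transcripts (GRCm38). The bases of *Etf1* are not shown.
Pelo: gaagaggatTAAgac
Hbs1l: ataaaagagTGAcgg
Gtpbp1: agcggctgcTGAatg
Gtpbp2: gaccaggcaTGActc
Ascc3: ttgtcagtaTAGtat
Nemf: aagaggaaaTAGctg
Ltn1: acctttttcTGAggt
Gspt1: gagaaagacTAAgca
Abce1: ttggatgatTAGatt
TGA closes 4 of these genes, TAG 3 and TAA 2. Among the 10811 genes of the table with a coding sequence, the shares were 51.12%, 23.01% and 25.86%. *Nemf*, *Ascc3* and *Abce1* share TAG, and of these *Nemf* and *Ascc3* were higher in *Eef1g*-cKO while *Abce1* overlapped.

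The start contexts of *Pelo* and *Nemf*, the members with the largest differences in either direction, are shown with the start codon in capitals, 9 bases before it and 6 after, since RPFs are counted from ribosomes that began there.
Pelo: gctgaggtcATGaagctc
Nemf: agcctagccATGaagagc
Both have a purine 3 bases before the start codon and A right after it. A purine at that place was present in 7 of the 9 members with a sequence and in 86.25% of 10458 genes of the table, and G right after the start codon in 7 of 9 and in 53.1%. These are descriptions of the sequences only.

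*Pelo* encodes Pelota, the eRF1-like partner in the rescue pair. In control it had 31.3 and 56.5 FPKM from 122 and 123 reads, and in *Eef1g*-cKO 25.6 and 14.0 FPKM from 9 reads in each library. The *Eef1g*-cKO libraries were the lower ones, but the counting interval of the first (11.7 to 48.5 FPKM) took in the lower control library, and the 2 control libraries differed by more than their counting intervals of 26.0 to 37.4 and 47.0 to 67.4 FPKM. The difference in limma on log2(FPKM + 1) was −1.11 (SE 0.42, 95% interval −2.14 to −0.08), with adjusted p = 0.142 over all genes tested. With each library left out in turn it ran from −1.53 to −0.69. Without *Eef1g*-cKO replicate 1 it was −1.52 with a limma adjusted p of 0.0388, in a fit where 1 library stands for *Eef1g*-cKO and is assumed to vary like the control libraries. *Pelo* lies on chr13:115088355-115090158 (GRCm38.p6, minus strand) within the span of *Itga1* on the same strand, with no exon bases shared, and *Itga1* had 22, 5, 2 and 1 reads in the 4 libraries.

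*Hbs1l* (chr10:21295979-21368889, plus strand) encodes the GTPase that brings Pelota to the ribosome. It had 15.4 and 14.5 FPKM in control and 10.95 and 9.52 FPKM in *Eef1g*-cKO. The genotypes did not overlap in these values, but the *Eef1g*-cKO values rest on 12 and 19 reads and their counting intervals (5.66 to 19.1 and 5.73 to 14.9 FPKM) took in the lower control value. The limma difference was −0.51 (SE 0.31, 95% interval −1.28 to 0.26, adjusted p = 0.317). *Hbs1l* also encodes a shorter isoform that works with the exosome in place of Pelota, and the table gives 1 value for the gene. The ratio of *Hbs1l* to *Pelo* within a library was 0.492 and 0.256 in control against 0.428 and 0.678 in *Eef1g*-cKO. The ratios overlapped between genotypes, and their log2 difference of 0.60 had a two-sided exact permutation p of 0.667, where 0.333 is the smallest p that 2 against 2 libraries allow. That difference was 0.13 without control replicate 2 and 0.27 without *Eef1g*-cKO replicate 2, against 1.07 without control replicate 1 and 0.93 without *Eef1g*-cKO replicate 1.

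*Gtpbp1* (chr15:79690001-79721479, plus strand) had 19.3 and 20.8 FPKM in control and 19.7 and 27.4 FPKM in *Eef1g*-cKO. The first *Eef1g*-cKO library lay between the control libraries and the second above them, and the limma difference was 0.20 (SE 0.29, 95% interval −0.51 to 0.92, adjusted p = 0.663). *Gtpbp2* (chr17:46159227-46169370, plus strand) was the lowest of the 10, with 5.17 and 3.90 FPKM in control and 4.52 and 4.13 FPKM in *Eef1g*-cKO. Both *Eef1g*-cKO values fell between those of control and rest on 3 and 5 reads, so that the interval of the first ran from 0.932 to 13.2 FPKM. The limma difference of *Gtpbp2* was −0.05 with a 95% interval of −1.11 to 1.02, which excludes neither a doubling nor a halving of its level. *Gtpbp2* stood at 0.267 and 0.187 of *Gtpbp1* in control against 0.229 and 0.151 in *Eef1g*-cKO, and the log2 difference of −0.27 had an exact permutation p of 0.667.

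*Nemf* (chr12:69311541-69357201, minus strand) encodes the protein that marks a large subunit with a stuck chain and can extend the chain. It had 32.6 and 24.8 FPKM in control from 301 and 128 reads, and 58.8 and 62.6 FPKM in *Eef1g*-cKO from 49 and 95 reads. The *Eef1g*-cKO counting intervals (43.5 to 77.7 and 50.6 to 76.5 FPKM) lay wholly above those of control (29.0 to 36.5 and 20.7 to 29.5 FPKM). The limma difference was 1.06 (SE 0.24, 95% interval 0.46 to 1.67), with adjusted p = 0.0552, just short of the threshold. *Nemf* stood at percentile 91.9 of the differences of all 10475 genes tested. On the reads recovered from the deposited normalized counts, edgeR's quasi-likelihood test gave 1.15 with adjusted p = 0.00257 and DESeq2 1.14 with adjusted p = 0.0123, and *Nemf* was the only member called by either model at an adjusted p under 0.05 and a log2 difference above 1. It was called under 7 of 16 alternative settings, with adjusted p from 0.00218 to 0.233 and the difference positive in all 16.

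*Ltn1* (chr16:87376651-87432619, minus strand), the ligase that NEMF recruits, had 22.1 and 20.6 FPKM in control and 36.9 and 32.0 FPKM in *Eef1g*-cKO. The control libraries agreed within counting error, and the *Eef1g*-cKO intervals (28.5 to 47.2 and 26.1 to 38.9 FPKM) lay above those of control (20.05 to 24.3 and 18.004 to 23.5 FPKM). The limma difference was 0.66 (SE 0.25, 95% interval 0.05 to 1.27, adjusted p = 0.141), and edgeR gave 0.75 with adjusted p = 0.0206. The ratio of *Nemf* to *Ltn1* was 1.48 and 1.204 in control against 1.59 and 1.96 in *Eef1g*-cKO. Both *Eef1g*-cKO ratios were above both control ratios, and the log2 difference of 0.40 had the smallest exact permutation p possible, 0.333. It was 0.26 without replicate 2 of either genotype.

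*Ascc3* (chr10:50592663-50851202, plus strand), the helicase of the complex that separates collided ribosomes, had 13.1 and 9.08 FPKM in control and 16.7 and 24.3 FPKM in *Eef1g*-cKO. The groups did not overlap, although the *Eef1g*-cKO library nearer to control, with 28 reads and an interval of 11.1 to 24.2 FPKM, took in the higher control value. The limma difference was 0.83 (SE 0.35, 95% interval −0.05 to 1.70, adjusted p = 0.180), and edgeR gave 0.98 with adjusted p = 0.0187.

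*Etf1*, which encodes eRF1, had 27.4 and 28.3 FPKM in control and 49.4 and 31.8 FPKM in *Eef1g*-cKO. The control libraries were close together and the *Eef1g*-cKO libraries far apart, the second with a counting interval of 23.4 to 42.1 FPKM that held both control values. The limma difference was 0.49 (SE 0.29, 95% interval −0.23 to 1.21, adjusted p = 0.298), and leaving out *Eef1g*-cKO replicate 1 gave 0.18, leaving out replicate 2 gave 0.81. *Gspt1* (chr16:11216240-11254325, minus strand), which encodes eRF3a, had the most reads of the members, 642 and 483 in control against 109 and 170 in *Eef1g*-cKO, or 37.9 and 51.1 against 71.3 and 61.1 FPKM. Both *Eef1g*-cKO libraries were higher, with a limma difference of 0.57 (SE 0.25, 95% interval −0.04 to 1.19, adjusted p = 0.184) and an edgeR difference of 0.65 with adjusted p = 0.0400. Without control replicate 1 the limma difference was 0.36. *Gspt1* shares 239 exon bases with the antisense gene 2610020C07Rik, which had 23, 27, 0 and 3 reads.

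*Gspt1* stood at 1.38 and 1.81 times *Etf1* in control and 1.44 and 1.92 times in *Eef1g*-cKO, which is an overlapping range with a log2 difference of 0.07 (exact permutation p = 0.667). The difference was smaller than the spread between libraries of a genotype (SD of the log2 ratio 0.27 in control and 0.29 in *Eef1g*-cKO, n = 2), and its direction turned without control replicate 1 (−0.12) or without *Eef1g*-cKO replicate 2 (−0.13). *Abce1* (chr8:79683442-79711740, minus strand), which works in rescue and in termination, had 33.0 and 42.6 FPKM in control and 37.5 and 30.9 FPKM in *Eef1g*-cKO. The genotypes overlapped, with a limma difference of −0.14 (SE 0.26, 95% interval −0.78 to 0.50, adjusted p = 0.746).

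**Figure D1:**
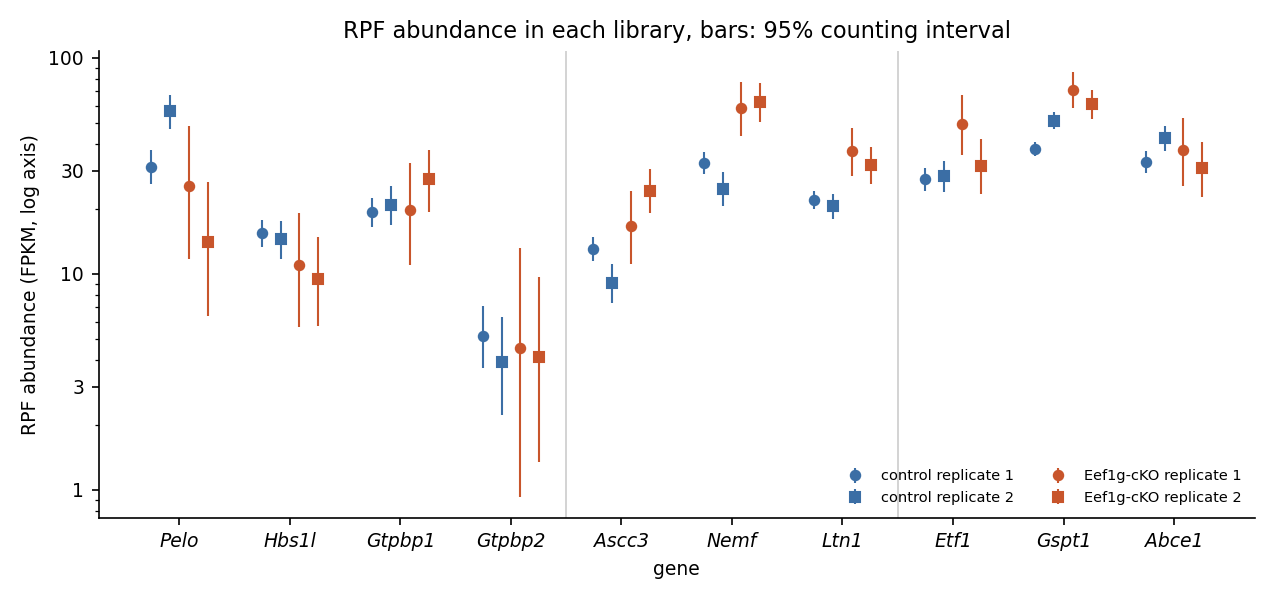
RPF abundance of each gene in each library, in FPKM on a log axis, with circles for replicate 1 and squares for replicate 2, control in blue and *Eef1g*-cKO in orange, and bars for the 95% counting interval. Grey lines separate the PELO, HBS1L and GTPBP genes, the collision and quality control genes and the termination genes, and the *Nemf* intervals of *Eef1g*-cKO (43.5 to 77.7 and 50.6 to 76.5 FPKM) lie above those of control.

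At an adjusted p under 0.05 and an absolute log2 difference above 1, limma called 0 of the 10 members increased and 0 decreased, against 2.87% and 4.97% of the 10475 genes tested. By unadjusted limma p at the same thresholds, 1 member was called increased (*Nemf*) and 1 decreased (*Pelo*), against 7.32% and 16.3% of all genes tested. In limma 3 members (*Nemf*, *Ltn1* and *Pelo*) had an unadjusted p under 0.05 at any fold. The legends give these thresholds for Ribo-seq without naming an adjustment. The paper's Ribo-seq counts, 502 genes increased and 451 decreased, equal those of DESeq2 by adjusted p here. In that DESeq2 fit *Nemf* was called increased and *Pelo* was not called. In edgeR 4 members (*Nemf*, *Ltn1*, *Ascc3* and *Gspt1*) had an adjusted p under 0.05 at any fold, all of them higher in *Eef1g*-cKO. With the fold threshold, edgeR called 1 member increased and 0 decreased, against 705 and 904 of 8056 genes tested. For the counts at any fold, in limma and in edgeR, the share of all genes was not computed, so they are descriptions only. In DESeq2 *Nemf* was the 1 member with an adjusted p under 0.05. Both *Eef1g*-cKO libraries were above both control libraries for 5 members, against 24.6% of all genes tested, and below them for 2 members, against 37.7%. The limma difference was positive for 6 members and negative for 4, with a median of 0.35 beside −0.23 over all genes tested. All 10 members together had 1082 and 1178 reads per 1000000 in control against 1617 and 1488 in *Eef1g*-cKO, a mean of 1130 ± 67.7 against 1552 ± 91.2 (SD, n = 2). This sum is not scaled by length, so the members with the most reads weigh most in it. *Gspt1* alone had 259 and 349 in control against 487 and 417 in *Eef1g*-cKO, while the 4 members with negative differences did not share the rise.

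**Figure D2:**
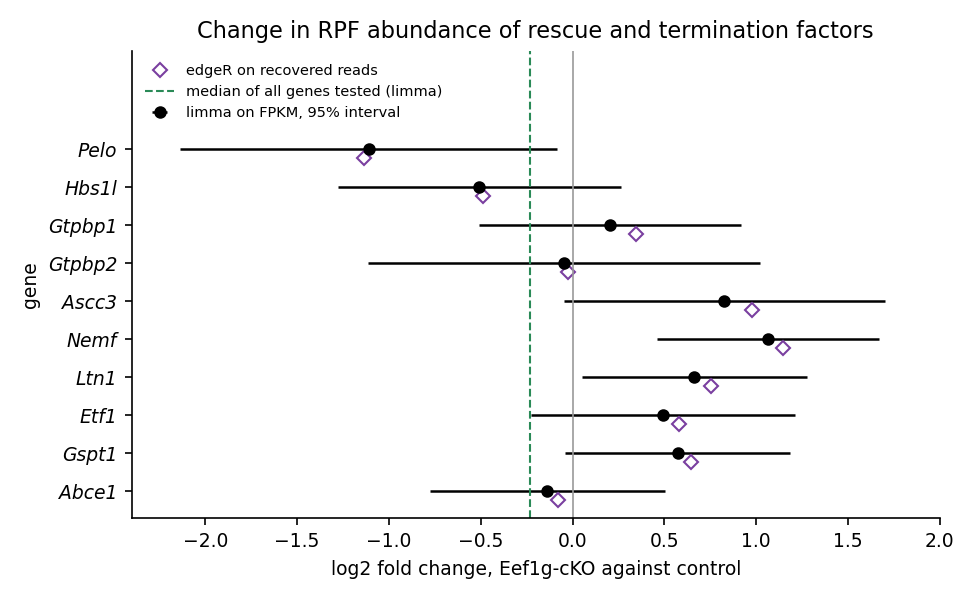
Log2 fold change of each gene in *Eef1g*-cKO against control, with limma values on log2(FPKM + 1) as black points with 95% intervals and edgeR values on recovered reads as open diamonds. The intervals of *Nemf* (0.46 to 1.67), *Ltn1* (0.05 to 1.27) and *Pelo* (−2.14 to −0.08) leave out 0, and the green dashed line marks the median of all genes tested, −0.23.

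Levels were compared between members per kilobase. Per kilobase of deposited gene length, the control order ran from *Gspt1* (44.5 ± 9.32 FPKM) through *Pelo*, *Abce1* (37.8 ± 6.81), *Nemf*, *Etf1* (27.9 ± 0.594), *Ltn1*, *Gtpbp1* (20.1 ± 1.05), *Hbs1l* (14.9 ± 0.668) and *Ascc3* (11.1 ± 2.85) to *Gtpbp2* (4.53 ± 0.898). The neighbours *Gspt1* and *Pelo*, *Pelo* and *Abce1*, *Nemf* and *Etf1*, and *Ltn1* and *Gtpbp1* overlapped between libraries. In *Eef1g*-cKO the order was *Gspt1* (66.2 ± 7.27 FPKM), *Nemf*, *Etf1* (40.6 ± 12.5), *Ltn1* (34.5 ± 3.498), *Abce1* (34.2 ± 4.69), *Gtpbp1* (23.6 ± 5.44), *Ascc3* (20.5 ± 5.33), *Pelo*, *Hbs1l* (10.2 ± 1.015) and *Gtpbp2* (4.32 ± 0.272). Here *Gspt1* and *Nemf*, *Etf1* and *Ltn1*, *Ltn1* and *Abce1*, *Gtpbp1* and *Ascc3*, and *Ascc3* and *Pelo* overlapped.

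The deposited lengths hold different shares of coding sequence, from 28.0% in *Gspt1* and 35.5% in *Etf1* to 85.8% in *Nemf* and 88.2% in *Ascc3*, beside a median of 56.4% over the genes tested. Since RPFs come mainly from coding sequence, the levels were also set per kilobase of it. On this scale the termination factors led in control, with *Gspt1* at 159 reads per kilobase of coding sequence per 1000000 reads, *Abce1* at 80.1 and *Etf1* at 78.5, followed by *Pelo* at 59.6. *Hbs1l* (35.7), *Gtpbp1* (34), *Nemf* (33.5) and *Ltn1* (31.2) formed a run of overlapping neighbours above *Ascc3* (12.6) and *Gtpbp2* (7.41). In *Eef1g*-cKO the coding levels were 236 for *Gspt1*, 114 for *Etf1*, 72.4 for *Abce1*, 70.7 for *Nemf*, 50.3 for *Ltn1*, 39.9 for *Gtpbp1*, 26.9 for *Pelo*, 24.4 for *Hbs1l*, 23.2 for *Ascc3* and 7.07 for *Gtpbp2*. In the means, *Pelo* stood above *Nemf* in control and below it in *Eef1g*-cKO on both scales, but in FPKM the control ranges overlapped and *Pelo* was the lower of the pair in control replicate 1 (31.3 against 32.6).

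**Figure D3:**
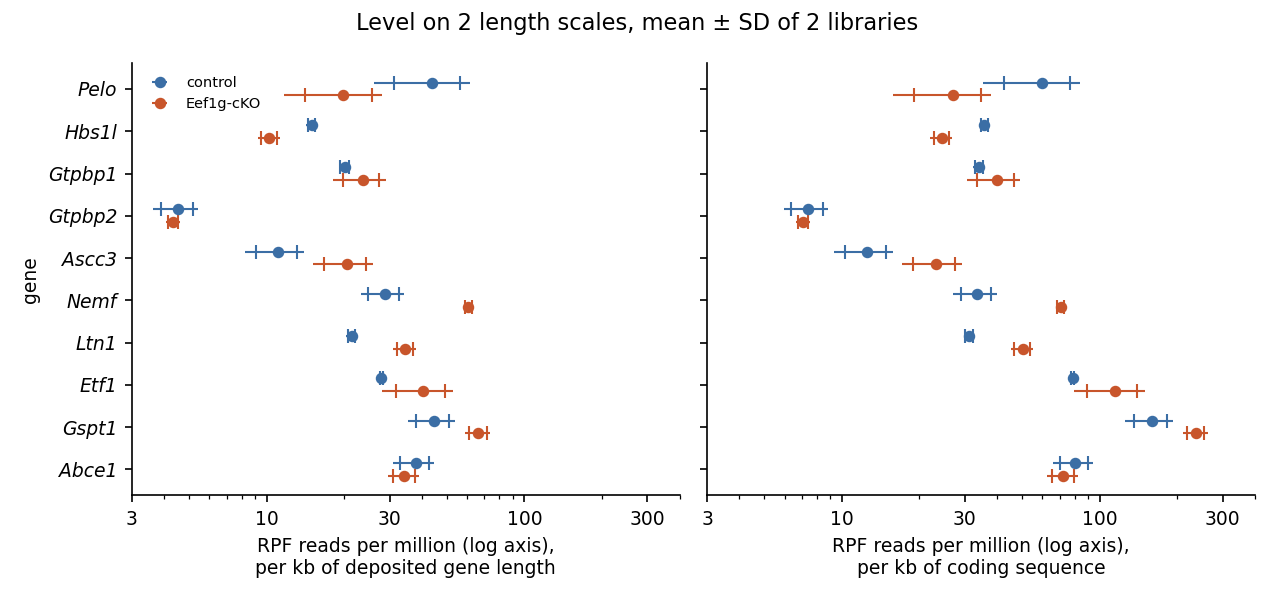
Level of each gene in control (blue) and *Eef1g*-cKO (orange), per kilobase of deposited gene length (left) and per kilobase of coding sequence (right), in RPF reads per kilobase per 1000000 reads on log axes. Points and bars are means ± SD of 2 libraries and ticks the single libraries, and *Gspt1* is the highest on both scales, at 44.5 FPKM and 159 reads per kilobase of coding sequence per 1000000 reads in control.

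Codon composition went with the difference over all genes, and its place among the members is given beside it. The share of G or C at the last codon position was 37.1% to 48.0% in *Abce1*, *Etf1*, *Nemf*, *Ascc3*, *Gspt1*, *Hbs1l* and *Ltn1*, and 68.0%, 68.3% and 75.1% in *Gtpbp2*, *Gtpbp1* and *Pelo*, beside a median of 60.2% over 9769 genes tested. Of the 7 members under 50%, 5 had a positive difference, with a median of 0.57, and of the other 3, 1 was positive, with a median of −0.05. Over all genes tested the median difference was 0.22 in the decile of genes with the lowest share and −0.72 in the decile with the highest. Against the median of its own decile, *Nemf* was higher by 0.84, *Gtpbp1* by 0.77, *Ascc3* by 0.61, *Gtpbp2* by 0.52, *Ltn1* by 0.50, *Gspt1* by 0.41 and *Etf1* by 0.27. On the same measure *Hbs1l* differed by −0.67, *Pelo* by −0.39 and *Abce1* by −0.36. With the trend of each library with this share removed before the fit, a setting added after the data were seen, the limma difference of *Nemf* was 0.56 (adjusted p = 0.182), that of *Pelo* −0.72, that of *Hbs1l* −0.88 (adjusted p = 0.145) and that of *Etf1* −0.015. In the same fit *Ltn1* differed by 0.33, *Ascc3* by 0.33 and *Gspt1* by 0.19, smaller than without the removal, and *Abce1* by −0.66, *Gtpbp1* by 0.50 and *Gtpbp2* by 0.24. None of the 10 passed the adjusted limma test there.

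**Figure D4:**
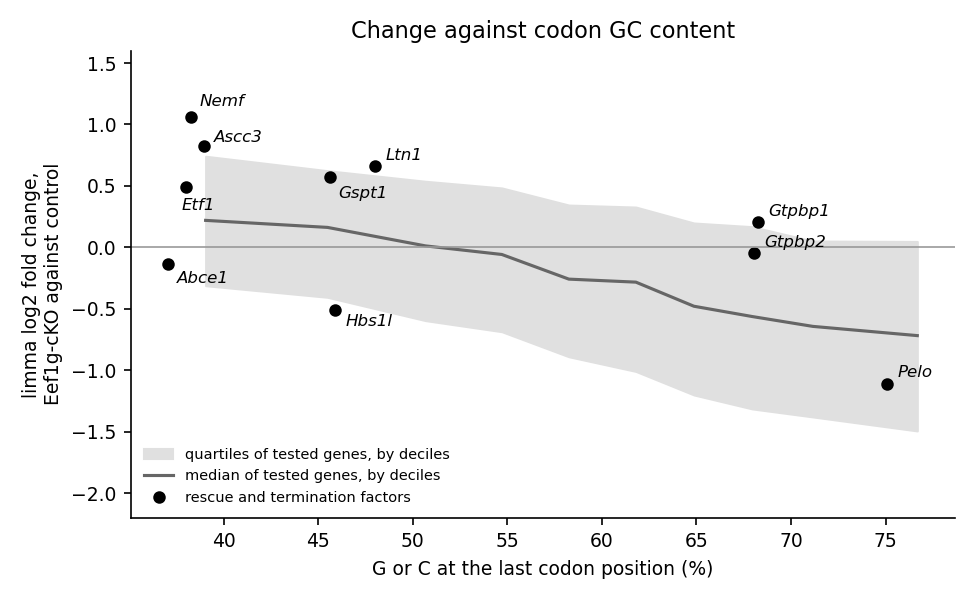
Limma log2 fold change (*Eef1g*-cKO against control) against the percentage of codons with G or C at the last position, with the 10 genes as black points. The grey line and band give the median and quartiles of the tested genes in deciles, which run from a median of 0.22 to −0.72, and *Nemf* and *Gtpbp1* lie 0.84 and 0.77 above the median of their decile.

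Around the 10 members, 67 other genes of 6 lists (partners of ribosome-associated quality control, collision sensing, mRNA decay on stalled ribosomes, termination and recycling, nonsense-mediated decay and mitochondrial release) had a median limma difference of −0.19. By adjusted p 2 of them were increased and 1 decreased, against 2.87% and 4.97% of all genes tested. By unadjusted p 3 (4.48%) were increased and 5 (7.46%) decreased, against 7.32% and 16.3% of all genes tested. The same shares of all genes stand beside the counts of each list below. All 8 partners of the quality control pathway, among them *Vcp*, *Nploc4* and *Tcf25*, passed neither call rule, with a median of −0.30, as did all 9 decay genes (median −0.51) and all 12 nonsense-mediated decay genes (median 0.14).

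*Rnf25*, an E3 ligase that acts on factors trapped on stalled ribosomes, was the 1 of 17 collision genes that passed. It had 31.2 and 37.7 FPKM in control against 12.1 and 13.3 in *Eef1g*-cKO, and fell by 1.37 on the log2 scale (limma adjusted p = 0.0442). Its *Eef1g*-cKO values rest on 4 and 8 reads. Of the other subunits of the ASC-1 complex, *Ascc1* differed by 0.95 (limma adjusted p = 0.152), *Ascc2* by −0.34 and *Trip4* by 0.06. These 3 were named because they share the complex with *Ascc3*, after their values had been seen.

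Among the 14 termination modifiers and recycling factors 1 gene passed the adjusted test, *Pabpc1*, the cytoplasmic poly(A)-binding protein that contacts eRF3. It rose from 69.1 and 47.6 FPKM to 131 and 176 FPKM, a limma difference of 1.39 (adjusted p = 0.0437). By unadjusted p alone 4 were decreased. They include *Gspt2*, the intronless paralog that encodes eRF3b (15.7 and 20.9 FPKM in control, 7.17 and 4.92 in *Eef1g*-cKO, limma difference −1.46, adjusted p = 0.0651), and *Trmt112*, the partner of the methyltransferase that modifies eRF1 (42.6 and 151 against 13.0 and 14.3 FPKM, −2.48, adjusted p = 0.0561). The *Eef1g*-cKO values of *Trmt112* rest on 3 and 6 reads. *Denr*, which helps to recycle the small subunit, had 127 and 185 against 89.9 and 52.6 FPKM (−1.14, adjusted p = 0.0854). *Eif5a2*, outside the naming rule because of its low level, had 6.95 and 4.34 against 0 and 0.982 FPKM.

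*Gspt1* was higher and *Gspt2* lower in both *Eef1g*-cKO libraries, although neither passed the adjusted limma test. *Gspt2* stood at 0.414 and 0.408 of *Gspt1* in control against at 0.1005 and 0.0805 in *Eef1g*-cKO, a log2 difference of −2.19 with the smallest exact permutation p possible, 0.333. This ratio was chosen after the values had been seen, its *Eef1g*-cKO values rest on 4 and 5 *Gspt2* reads, and the paralogs may share reads. Over the 5 ratios examined every Benjamini-Hochberg adjusted p was 0.667.

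Of 7 mitochondrial release and rescue genes, 1 passed the adjusted test, 1700021F05Rik (*Mtres1*), which encodes a rescue factor of stalled mitochondrial ribosomes. It rose from 30.1 and 23.3 FPKM to 79.6 and 84.6 FPKM, a limma difference of 1.59 (adjusted p = 0.0307). The elongation factors had a median of −1.05 over 8 genes, the deleted gene included, and 0 of them were called increased by either p. *Eef1d* passed the adjusted test there (−1.9998, adjusted p = 0.0225), and *Eef1b2* (−1.09, adjusted p = 0.0561) and *Eef2k* (−2.70, adjusted p = 0.0557) passed by unadjusted limma p only, as did *Eef1g* (−3.39, adjusted p = 0.0731). *Eef2k* had 4 and 1 reads in the *Eef1g*-cKO libraries. The difference between the lists was not tested.

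**Figure D5:**
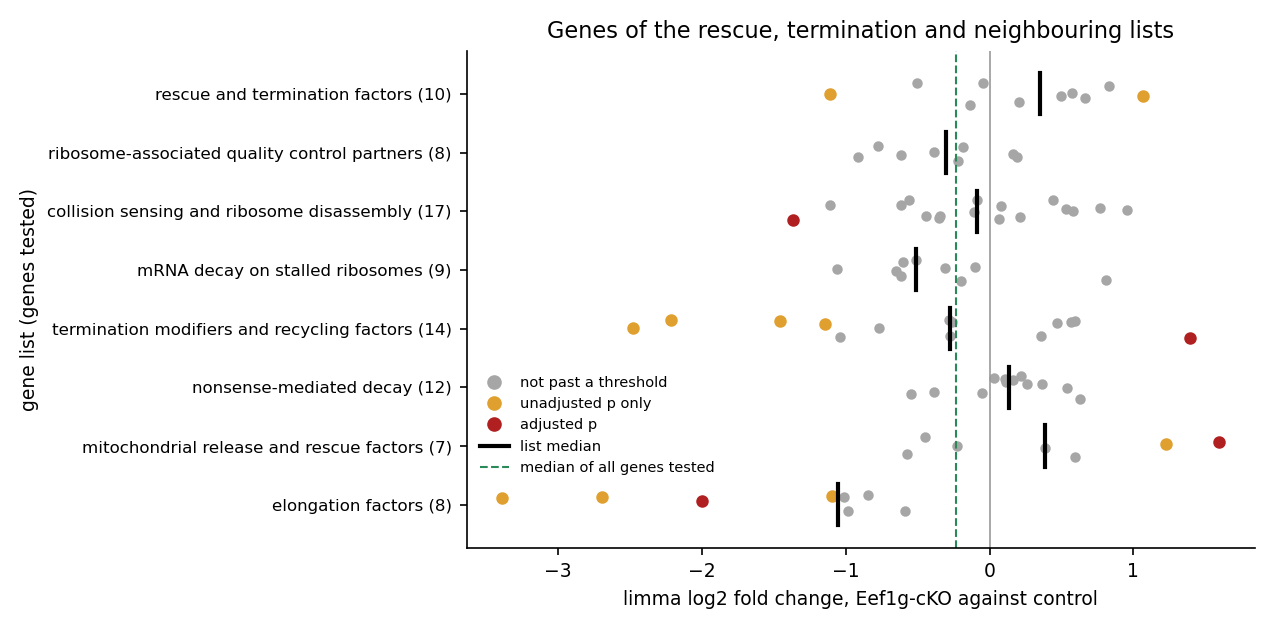
Limma log2 fold changes (*Eef1g*-cKO against control) of each gene of the rescue and termination factors and of 7 neighbouring lists, with the number of genes tested in brackets. Grey points passed no threshold, yellow points passed by unadjusted p and red points by adjusted p (with an absolute log2 fold change above 1), black bars are list medians, among them 0.35 for the rescue and termination factors, 0.38 for the mitochondrial release and rescue factors and −1.05 for the elongation factors, and points are spread vertically at random.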

How the data were processed

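RPFs of FACS-sorted leptotene/zygotene spermatocytes were prepared by the authors with cycloheximide, RNase I and the QEZ-seq kit. The submitters' processing notes name cutadapt, Bowtie and STAR and the builds mm10 and hg38, with no roles. The counter and annotation for Ribo-seq are not given in the sources used here. The FPKM values were computed by the authors from reads counted on genes, and the deposited normalized counts (a signal, reads divided by a size factor per library) gave back whole reads for 100% of values in every library (tolerance 1e-06). The table's log2 fold changes, test score and p-values are the authors' own deposited comparison and were not used.

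Groups came from the sample titles. FPKM were compared as log2(FPKM + 1) with limma 3.58.1 (R 4.3.3, trended prior variance) in 10475 genes, those whose mean over the 4 libraries reached 1 FPKM, with Benjamini-Hochberg adjustment over all of them. A call needed p under 0.05 together with a log2 fold change beyond 1 in size. All 10 members passed the filter. edgeR 4.0.16 and DESeq2 1.42.0 on the recovered reads, other pseudocounts, filters and scalings, a replicate block and leaving out each library were alternatives. Nothing beyond the labels says whether libraries came from separate mice, so p-values measure the spread between these libraries, and no batch is labelled. 3 reads, the number that a gene at 0 reads can still have, equal 1.21, 2.17, 13.4 and 7.35 FPKM for a gene of 1 kb in control 1 and 2 and *Eef1g*-cKO 1 and 2.

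The members, lists and tests were chosen with earlier results of these data known. All members are named. In the other lists the genes named passed by unadjusted p, averaged 5 FPKM or more and did not overlap between genotypes, up to 4 a list, and genes named outside this rule are said to be so. *Vcp*, *Nploc4* and *Tcf25* are examples only. Coordinates are from RefSeq GRCm38.p6. The deposited length equalled the curated exon union for 6 of 10 members (*Pelo*, *Gtpbp1*, *Ltn1*, *Nemf*, *Ascc3* and *Etf1*), so the authors' annotation may differ.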

Additional observations from a re-analysis of the deposited data

How the results depend on the processing

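No member changed direction beyond those named here, but the calls depended on the setting. *Nemf* was called increased, the 1 member so called, with a minimum mean of 5 FPKM, with libraries centred on their medians, with size-factor normalized counts, in edgeR with and without a filter, in DESeq2 and with the replicate block, and 1 member, *Pelo*, was called decreased without *Eef1g*-cKO replicate 1. With any 1 library left out, 0 members were called increased and 0 to 1 decreased, in fits where the lone library of a genotype is assumed to vary like those of the other. The median of the members was 0.49 with a minimum of 5 FPKM (which drops *Gtpbp2*), 0.56 with centred libraries, 0.41 with size-factor counts, 0.46 in edgeR with or without a filter, 0.45 in DESeq2, 0.22 with the GC trend removed (added after the data were seen) and 0.26 to 0.38 with 1 library left out. The difference of *Gtpbp2* turned to 0.17 with centred libraries, 0.0020 with size-factor counts and 0.24 with the GC trend removed, and ran from −0.21 to 0.12 with 1 library left out (0.0057 without *Eef1g*-cKO replicate 2). *Abce1* turned to 0.076 with centred libraries and ran from −0.32 to 0.042 with 1 library left out, *Etf1* turned to −0.015 with the GC trend removed, and *Gtpbp1* ran from −0.025 to 0.43 with 1 library left out. The log2 ratio difference then ran from −0.57 to 0.036 for *Gtpbp2* to *Gtpbp1* and from −0.13 to 0.28 for *Gspt1* to *Etf1* (−0.12 without control replicate 1), and that of *Gspt2* to *Gspt1* was −2.03 with 1 FPKM added. The cause of these changes was not tested.

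Over all genes limma called 301 increased and 521 decreased by adjusted p. The counts were 29 and 47 with a pseudocount of 0.1 FPKM, 205 and 373 without a filter, 521 and 383 with centred libraries, which moved the median of all genes from −0.23 to −0.02, 545 and 715 with size-factor counts, 0 and 0 without a trend in the prior variance (793 and 1811 by unadjusted p), 705 and 904 in edgeR (689 and 876 without its filter), 502 and 451 in DESeq2, and 0 and 0 without control replicate 1 (548 and 1013 unadjusted) or control replicate 2 (479 and 795 unadjusted). Without *Eef1g*-cKO replicate 1 they were 321 and 1086 and without replicate 2 537 and 1432. With the replicate block they were 424 and 822, and *Nemf* had adjusted p = 0.0494 in limma. The labels do not say whether the replicate numbers pair the samples. The deviations of control 1 and *Eef1g*-cKO 1 from their group means had a correlation of −0.0080 across 10475 genes. This does not settle the pairing, since the *Eef1g*-cKO libraries had a median of 5 and 8 reads per gene. Among the members, depth limits *Gtpbp2*, *Pelo* and *Hbs1l* most, with 3 to 19 reads in an *Eef1g*-cKO library.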
